A study of Homo sapiens with 12 samples.

Results

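The genes described here are 37 genes of S phase and DNA replication, measured by RNA sequencing in A549 cells, a human lung adenocarcinoma line, with TIF1γ overexpression or TAF15 knockdown. They are a list of symbols grouped by function and matched to Ensembl identifiers through GENCODE 29. All 37 were found among the 57879 gene identifiers of each file, and all 37 were among the 13907 genes that passed the filter on low values. Every library comes from A549 cells infected with lentivirus to give stable lines. The TIF1γ group carried an expression construct for TIF1γ, the protein of the TRIM33 gene, and the vector group its empty control. The sh-TAF15 group carried an shRNA against TAF15, and the sh-NC group the corresponding control construct. Per the labels each group had 3 biological replicates, 12 samples in all. Of these, 8 are analysed here. They are 3 vector libraries (replicates 1, 2 and 3), 2 TIF1γ libraries (replicates 2 and 3), 1 sh-NC library (replicate 2) and 2 sh-TAF15 libraries (replicates 2 and 3). The other 4 are not analysed here. The promoter driving the constructs, and whether a line is a clone or a pool, are not given in the sources used here.

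DNA replication begins when origins are licensed in G1, as CDC6 and CDT1 load the MCM helicase onto DNA, and goes on when the kinases of S phase recruit CDC45, GINS and MCM10 to switch the helicase on. Polymerases then copy the strands with the sliding clamp PCNA and its loader RFC, ribonucleotide reductase and thymidylate synthase supply the deoxynucleotides, and histone chaperones rebuild chromatin behind the fork. Many of these genes are targets of the E2F transcription factors, which RB holds in check until cyclin E and cyclin D kinases phosphorylate it, so their mRNAs rise together as cells leave G1. In dividing tumour lines the summed mRNA of such genes is widely used as a marker of proliferation.

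Because E2F control is the feature these genes are known for, the promoters of 5 of them are printed, as the letters behind the motif counts that follow. They are MCM6, the member with the most E2F sites, CDC6 and E2F1, textbook E2F targets, and MCM10 and POLA1, the members called in a comparison below. Each run is the RefSeq window on GRCh38.p14 from 250 bases before to 50 bases after the annotated start, 5′ to 3′ on the strand of the gene. Capitals mark every match to an E2F site or to its shorter core on either strand. The windows are chr2:135876394-135876693 (minus strand) for MCM6, chrX:24693668-24693967 (plus) for POLA1, chr10:13161308-13161607 (plus) for MCM10, chr17:40287629-40287928 (plus) for CDC6 and chr20:33686336-33686635 (minus) for E2F1.
MCM6: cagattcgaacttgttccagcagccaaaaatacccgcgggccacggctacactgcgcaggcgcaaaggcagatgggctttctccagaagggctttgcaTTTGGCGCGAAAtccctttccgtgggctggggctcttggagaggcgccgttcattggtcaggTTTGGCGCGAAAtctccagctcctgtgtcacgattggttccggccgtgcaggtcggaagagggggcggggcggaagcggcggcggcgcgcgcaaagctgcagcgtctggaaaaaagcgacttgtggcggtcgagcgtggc
POLA1: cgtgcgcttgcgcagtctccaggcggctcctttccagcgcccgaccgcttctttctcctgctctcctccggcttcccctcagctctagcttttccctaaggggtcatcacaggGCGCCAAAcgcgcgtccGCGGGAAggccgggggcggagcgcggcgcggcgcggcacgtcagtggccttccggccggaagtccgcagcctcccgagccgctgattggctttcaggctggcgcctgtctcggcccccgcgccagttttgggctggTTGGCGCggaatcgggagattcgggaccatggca
MCM10: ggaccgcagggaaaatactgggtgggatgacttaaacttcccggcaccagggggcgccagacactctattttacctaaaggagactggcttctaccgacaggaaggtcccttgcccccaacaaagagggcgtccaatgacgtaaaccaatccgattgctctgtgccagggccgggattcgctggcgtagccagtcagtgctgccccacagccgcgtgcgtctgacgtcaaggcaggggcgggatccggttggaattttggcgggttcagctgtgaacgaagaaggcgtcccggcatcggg
CDC6: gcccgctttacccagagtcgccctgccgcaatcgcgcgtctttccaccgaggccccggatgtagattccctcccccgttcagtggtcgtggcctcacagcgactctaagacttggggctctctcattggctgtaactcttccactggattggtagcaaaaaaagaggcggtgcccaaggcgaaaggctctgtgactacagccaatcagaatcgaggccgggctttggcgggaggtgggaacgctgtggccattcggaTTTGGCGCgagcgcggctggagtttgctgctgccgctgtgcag
E2F1: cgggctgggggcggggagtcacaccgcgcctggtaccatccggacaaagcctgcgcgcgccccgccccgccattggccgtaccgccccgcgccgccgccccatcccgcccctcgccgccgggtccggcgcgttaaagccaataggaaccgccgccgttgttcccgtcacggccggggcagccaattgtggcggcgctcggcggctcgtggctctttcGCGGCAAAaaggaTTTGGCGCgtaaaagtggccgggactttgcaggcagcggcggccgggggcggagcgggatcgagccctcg

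The E2F site was searched as TTTCCCGC, TTTGGCGC, TTTCGCGC or TTTGCCGC on both strands, and its core, which overlaps the site, as TTCCCGC or TTGGCGC. A window was at hand for 32 of the 37 genes. An E2F site was found in 18 of the 32 windows (56.2%), against 3.33% of 27305 promoter windows of the same length. The core was found in 22 (68.8%), against 9.33% of all windows. The CCAAT box was found in 16 of 32, against 35.7% of all windows, and the CHR element TTTGAA, known from G2 and M phase promoters, in 1 (3.12%), against 15.4%. In 25 windows of G2 and M phase genes the E2F site stood in 3 (12.0%) and the CHR element in 19 (76.0%). MCM6 held 4 site matches in 2 overlapping pairs, POLA1 1 site and 3 cores, CDC6 1 site and E2F1 2 sites, whereas these letters were not in the MCM10 window. Spellings near these were not searched, such as TTTGGCGGG, which stands in lower case in the CDC6 and MCM10 windows. A match is a description of the letters and not of binding.

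Expression is given in FPKM as deposited, which divides a gene's fragments by its length and by the size of the library. The files give no read totals. From the step between low values and GENCODE 29 lengths, the depth was estimated at 14500000 to 18800000 fragments per library, and the estimate for a member ran from 12 fragments (CCNE2 in TIF1γ replicate 2) to 15170 (MCM7 in the same library). TRIM33 had 2.23, 2.10 and 1.27 FPKM in vector and 8.03 and 6.14 in TIF1γ, where both libraries were above all 3 vector libraries (log2 fold change 1.45, SE 0.27, limma adjusted p = 0.129). The symbol TAF15 matched no identifier analysed here, so the knockdown was not checked by name. ENSG00000172660 was examined as a candidate for an older TAF15 identifier, although no table used here pairs it with a symbol, and it is not taken as a check. It had 107 FPKM in sh-NC and 26.3 and 17.4 in sh-TAF15 (log2 fold change −2.32, SE 0.41, limma adjusted p = 0.0685, from 4.26e-04 to 0.862 over the alternatives). The epithelial keratins KRT8 and KRT18 had 1129 to 5747 FPKM in vector, sh-NC and sh-TAF15 and were listed at 0 in both TIF1γ libraries, and they were set aside from the tests. The leukocyte markers PTPRC and CD3E and the endothelial marker VWF were at most 0.0519 FPKM in all 8 libraries. CD68, the other leukocyte marker listed, was expressed, and gave nearly all of the summed leukocyte level of 22.3 to 52.1 FPKM. The endothelial markers VWF and CDH5 summed to at most 0.270 FPKM.

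Most of these genes were well expressed. The median member had 22.7 FPKM as the mean of the vector libraries, against 7.22 for the median gene tested. PCNA, the sliding clamp, was highest at 427 ± 101 FPKM (SD, n = 3), followed by TK1, thymidine kinase, at 251 ± 61.0 and MCM7 at 187 ± 56.9. The lowest were CCNE2, the second cyclin E, at 0.806 ± 0.465, the repressor E2F8 at 1.75 ± 0.469, and POLA1, the catalytic subunit of the primase-polymerase complex, at 1.91 ± 0.673. Between PCNA and CCNE2 the list therefore spans most of the range of expression of these cells. Within the MCM2 to MCM7 ring, whose 6 subunits assemble in equal numbers, MCM7 was the highest and MCM6 the lowest in all 8 libraries. The MCM7 to MCM6 ratio was 7.63, 11 and 9.47 in vector, 25.1 and 12.7 in TIF1γ, 6.72 in sh-NC, and 4.95 and 5.76 in sh-TAF15. The genes differ in transcript GC, 57.6% for MCM7 and 43.1% for MCM6. Values of all genes shifted with GC between libraries, as given below, and the part of this in the ratio was not tested.

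**Figure D1:**
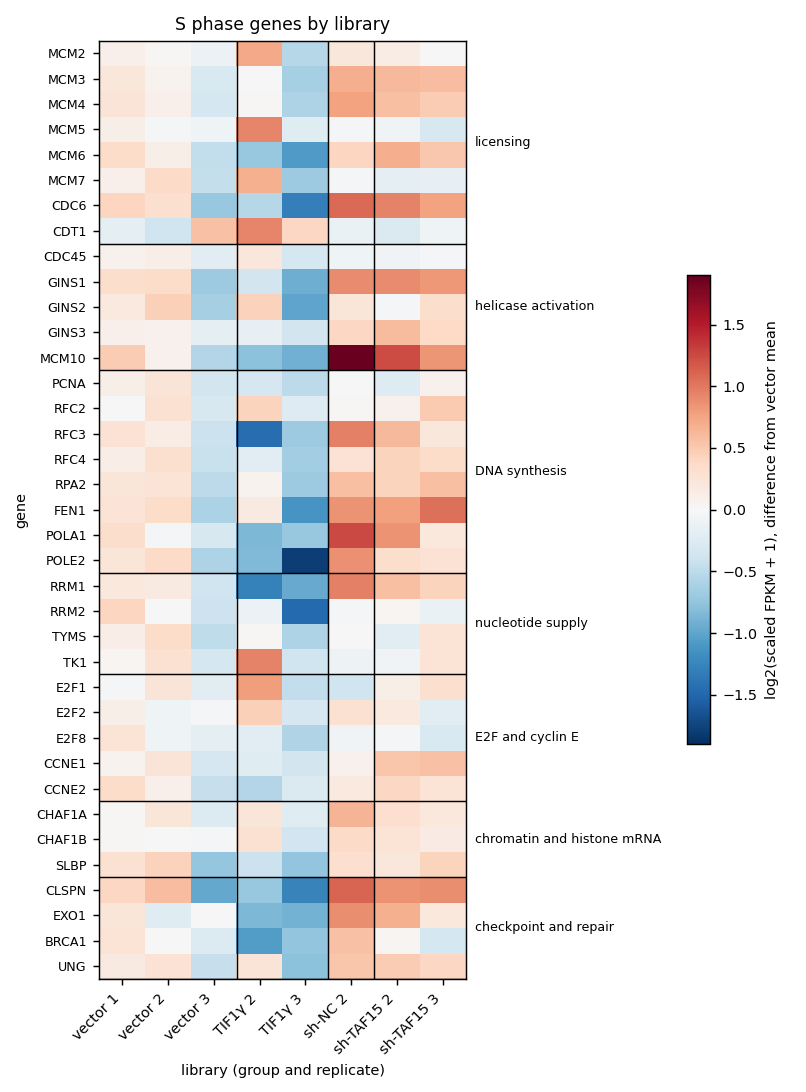
Each row is 1 of the 37 genes and each column 1 of the 8 libraries, and the colour is log2(scaled FPKM + 1) less the mean of the 3 vector libraries, with red higher and blue lower. TIF1γ replicate 3 is blue for 36 of 37 genes and TIF1γ replicate 2 for 19, while MCM10 in sh-NC has the deepest red, 1.88.

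The first comparison asks how these genes stand when TIF1γ is overexpressed. None of the 37 passed the test over all genes, and limma called 3 of the 13907 genes tested (0.0216%), so the test called almost nothing in this comparison. The log2 fold change was below 0 for 29 of the 37, against 48.4% of all genes, and the median was −0.32, against 0.02 for all genes. An unadjusted p under 0.05 was found for 11 members on the lower side (11.4% of all genes) and for 1, CDT1, on the higher side (8.54% of all genes). The 11 are MCM6, CDC6, MCM10, RFC3, POLA1, POLE2, RRM1, RRM2, CLSPN, EXO1 and BRCA1. For 9 members both TIF1γ libraries lay below all 3 vector libraries (19.3% of all genes), and for 0 members both lay above (17.3%). In bulk RNA, fewer cells in S phase and less of these mRNAs per cell cannot be told apart. The calls depended on vector replicate 3. Without it limma called 5 members lower (MCM6, CDC6, POLE2, RRM1 and CLSPN, adjusted p from 0.0417 to 0.0482) beside 307 genes in all. With the GC trend removed as well, an alternative chosen after seeing the data, 0 members and 1 gene in all were called. The median also depended on which TIF1γ library was kept, at −0.66 without TIF1γ replicate 2 and −0.12 without TIF1γ replicate 3. Without vector replicate 1 the 12 members with an unadjusted p under 0.05 became 6.

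The second comparison sets the control constructs side by side, sh-NC against vector. It shares its vector libraries with the first comparison and rests on 1 sh-NC library, which is assumed to vary like the other groups. Here limma called 2 members, both higher in sh-NC, MCM10 and POLA1, against 11% of all genes in either direction and 3.78% on the higher side. The log2 fold change was above 0 for 28 of 37, against 50.9% of all genes, with a median of 0.37 against 0.01. With an unadjusted p under 0.05 there were 8 members, all higher (MCM4, CDC6, GINS1, MCM10, RFC3, POLA1, RRM1 and EXO1), against 12.4% of all genes on the higher side. The sh-NC library lay above all 3 vector libraries for 21 members (37.7% of all genes) and below them for 1, E2F1 (36.3%), both counted on scaled values. The sh-NC and vector lines also differed in epithelial markers, of which all 4 that were tested were called lower in sh-NC (2 of 4 with the GC trend removed), and KRT19 had 26.9, 30.8 and 41.6 FPKM in vector and 0.243 in sh-NC. Their summed level was 38.6 to 56.3 FPKM in vector, 79.0 to 80.5 in TIF1γ, 2.25 in sh-NC and 9.44 to 9.63 in sh-TAF15. The summed level of 4 fibroblast markers was 0.366 to 1.27 FPKM in vector, 0.378 to 0.603 in TIF1γ, 3.74 in sh-NC and 5.51 to 5.53 in sh-TAF15, with PDGFRB and LUM at most 0.464. The part of these differences in the result was not tested.

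The third comparison, sh-TAF15 against sh-NC, asks how the genes stand when TAF15 is knocked down, and shares its sh-NC library with the second. None of the 37 was called by limma (0.0575% of all genes), and 0 had an unadjusted p under 0.05 (5.64% of all genes). The log2 fold change was below 0 for 25 of 37, against 50.3%, and the median was −0.09, against −0.0031 for all genes. Both sh-TAF15 libraries lay below the lone sh-NC library for 18 members (37.8% of all genes) and above it for 8 (35.3%). The 95% intervals of the members were wide, for example −0.84 to 0.65 for PCNA and −0.60 to 0.97 for MCM6, so changes within such intervals were not detectable with these libraries. The median was 0.12, of the other sign, with the replicate number as a block.

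**Figure D2:**
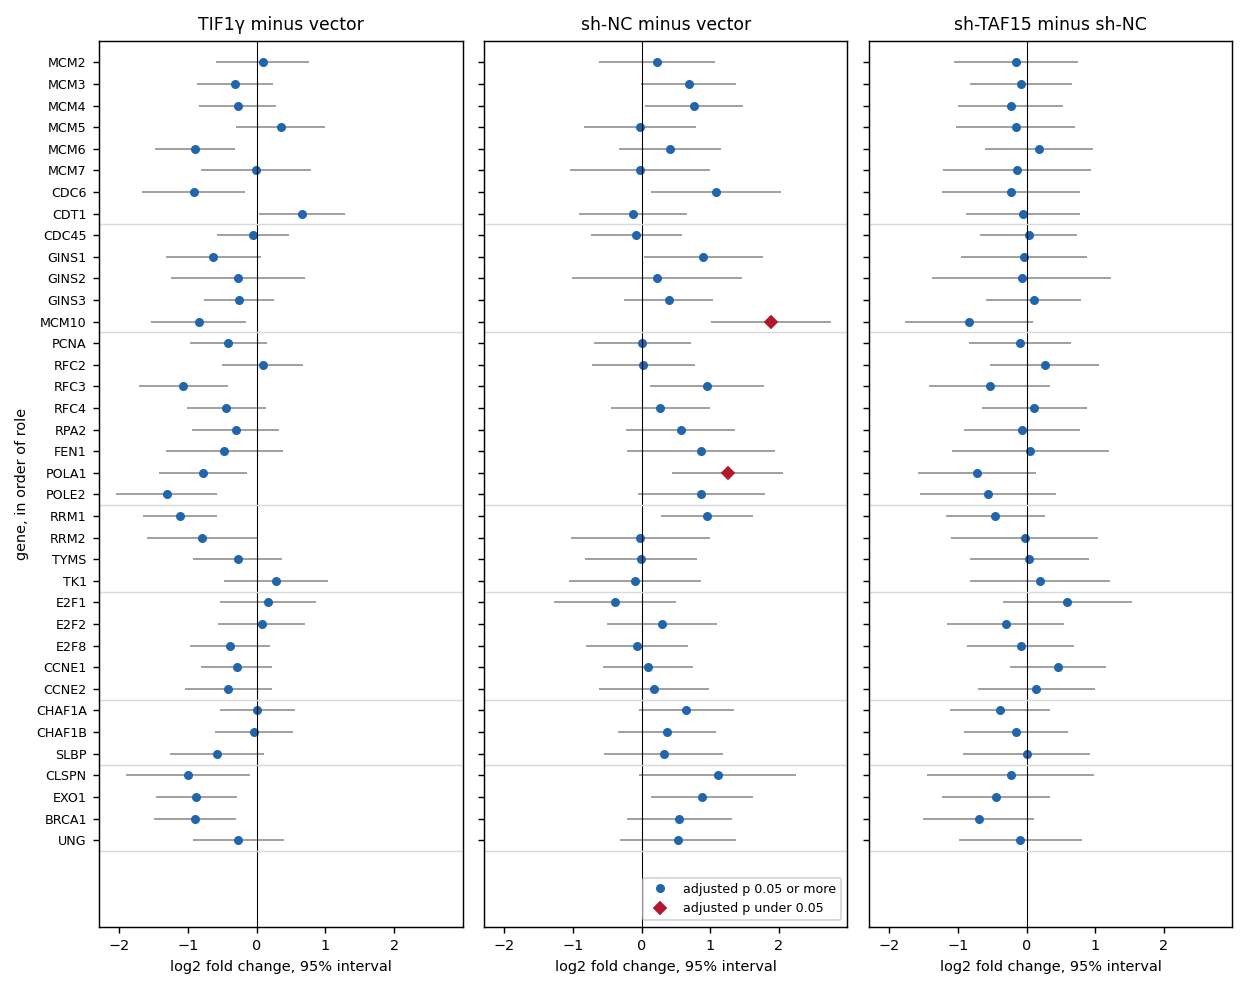
Points are log2 fold changes of the 37 genes from limma with 95% intervals as lines, in order of role, for the 3 comparisons on 1 shared axis. In TIF1γ minus vector the points run from −1.31 (POLE2) to 0.66 (CDT1) with none called, and the 2 red diamonds in sh-NC minus vector are MCM10 at 1.88 and POLA1 at 1.25.

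Of the 8 licensing genes 0 passed the test in TIF1γ against vector, 5 were below 0, and the median log2 fold change was −0.15. MCM6, the helicase subunit with the lowest mRNA, had 25.4, 21.9 and 13.4 FPKM in vector, 12.9 and 8.76 in TIF1γ, 29.8 in sh-NC, and 37.1 and 34 in sh-TAF15. Both TIF1γ libraries were below all vector libraries, though TIF1γ replicate 2 by little, and all 3 sh libraries were above them. The log2 fold change of MCM6 was −0.90 (SE 0.27, limma adjusted p = 0.2) in TIF1γ and 0.41 (SE 0.34, adjusted p = 0.451) in sh-NC against vector. CDC6, the loader of the helicase, had 22.6, 21.4 and 9.33 FPKM in vector, 12.5 and 6.14 in TIF1γ, 40.7 in sh-NC, and 37.8 and 34.8 in sh-TAF15. Vector replicate 3 was lower than TIF1γ replicate 2, so vector and TIF1γ overlap for CDC6, while all sh libraries were higher than both. Its log2 fold change was −0.92 (SE 0.35, limma adjusted p = 0.212) in TIF1γ and 1.08 (SE 0.44, adjusted p = 0.132) in sh-NC.

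CDT1, the partner of CDC6 in loading, ran the other way. CDT1 had 29.5, 26.1 and 47.5 FPKM in vector, 72.2 and 43.5 in TIF1γ, 34.3 in sh-NC, and 31.6 and 37.8 in sh-TAF15. TIF1γ replicate 3 was below vector replicate 3, so the groups overlap (log2 fold change 0.66, SE 0.29, limma adjusted p = 0.238). The CDT1 to CDC6 ratio was 1.30, 1.22 and 5.09 in vector, 5.76 and 7.09 in TIF1γ, 0.843 in sh-NC, and 0.836 and 1.09 in sh-TAF15. The ratio was thus high in vector replicate 3 and both TIF1γ libraries and low in the others. The transcript GC of CDT1 is 64.9% and that of CDC6 45.5%. Over all genes the log2 fold change in TIF1γ rose with GC, as given below, and its part in this ratio was not tested. MCM4, another helicase subunit, had 86.3, 79.4 and 55.4 FPKM in vector, 83.3 and 47.8 in TIF1γ, 139 in sh-NC, and 125 and 122 in sh-TAF15. The sh libraries were above all the others, and the log2 fold change was 0.76 (SE 0.33, limma adjusted p = 0.156) in sh-NC against vector. MCM2, MCM3, MCM5 and MCM7 had log2 fold changes from −0.32 (MCM3) to 0.35 (MCM5) in TIF1γ, and for each of the 4 the TIF1γ libraries lay on both sides of at least 1 vector library.

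In the helicase activation group the clearest difference of the whole list was in MCM10, the scaffold that binds the helicase and polymerase alpha. MCM10 had 4.46, 3.23 and 1.61 FPKM in vector (3.10 ± 1.43, SD, n = 3), 1.47 and 1.11 in TIF1γ, 15.0 in sh-NC, and 9.47 and 7.19 in sh-TAF15. The 3 sh libraries were above all vector libraries, sh-NC was the highest, and both TIF1γ libraries were below all vector libraries. The log2 fold change was 1.88 (SE 0.41) in sh-NC against vector and passed the test (limma adjusted p = 0.00949). Over the alternatives the adjusted p ran from 0.00254 to 0.0582, with the call lost when no filter on low values was used (0.0582) and when the GC trend was removed and sh-TAF15 replicate 3 left out (0.0506). In TIF1γ against vector it was −0.84 (SE 0.32, limma adjusted p = 0.212) and in sh-TAF15 against sh-NC −0.84 (SE 0.43, adjusted p = 0.894).

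The other 4 genes of this group were not called in any comparison. GINS1, a subunit of the GINS complex, had 26.1, 26.9 and 11.9 FPKM in vector, 17.9 and 10.2 in TIF1γ, 43.7 in sh-NC, and 44.9 and 44.1 in sh-TAF15. The sh libraries were alike and lay above vector, while TIF1γ overlapped with vector (log2 fold change −0.63, SE 0.32, limma adjusted p = 0.275 in TIF1γ). For GINS2, GINS3 and CDC45 the log2 fold change in TIF1γ ran from −0.28 (GINS2) to −0.06 (CDC45), and TIF1γ and vector overlapped for each of these 3. All 5 genes of the group were below 0 in TIF1γ against vector, with a median of −0.28. With the GC trend removed 4 of the 5 were below 0, with a median of −0.18.

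Among the 8 genes of DNA synthesis, 7 were below 0 in TIF1γ against vector, with a median of −0.46 and 0 calls. With the GC trend removed 8 were below 0, with a median of −0.31. POLE2, the second subunit of the leading strand polymerase epsilon, had 11.1, 12.6 and 5.72 FPKM in vector, 5.43 and 2.01 in TIF1γ, 20.1 in sh-NC, and 13.9 and 13.9 in sh-TAF15. TIF1γ replicate 3 was the lowest of all, and TIF1γ replicate 2 was just under vector replicate 3. Its log2 fold change of −1.31 (SE 0.34, limma adjusted p = 0.2) was the lowest of the 37. RFC3, a subunit of the clamp loader, had 13.1, 12.1 and 7.45 FPKM in vector, 3.71 and 6.19 in TIF1γ, 24.2 in sh-NC, and 19.3 and 15.0 in sh-TAF15. Here TIF1γ replicate 2 was the lower of the pair, and both were below vector (log2 fold change in TIF1γ −1.07, SE 0.30, limma adjusted p = 0.2). The sh libraries were above vector in FPKM as deposited. Once the libraries were scaled to each other, sh-TAF15 replicate 3 lay below vector replicate 1 for RFC3.

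POLA1, which extends the RNA primer, was the other called member. POLA1 had 2.61, 1.83 and 1.27 FPKM in vector (1.91 ± 0.673, SD, n = 3), 0.687 and 0.750 in TIF1γ, 6.43 in sh-NC, and 4.78 and 2.72 in sh-TAF15. As for MCM10, sh-NC was highest and the TIF1γ libraries lay below all vector libraries. Once the libraries were scaled to each other, sh-TAF15 replicate 3 lay below vector replicate 1 for POLA1. POLA1 was higher in sh-NC than in vector by 1.25 log2 units (SE 0.38, limma adjusted p = 0.0494). That call lay at the threshold, with an adjusted p from 0.0269 to 0.245 over the alternatives, and it was lost without vector replicate 2 (0.0576), vector replicate 3 (0.106), TIF1γ replicate 2 (0.0640) or TIF1γ replicate 3 (0.0603), and with the GC trend removed (0.102). In sh-TAF15 against sh-NC it had −0.72 (SE 0.40, limma adjusted p = 0.913).

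PCNA had 455, 511 and 316 FPKM in vector, 377 and 294 in TIF1γ, 476 in sh-NC, and 408 and 532 in sh-TAF15, so the groups overlapped (log2 fold change in TIF1γ −0.41, SE 0.26, limma adjusted p = 0.36). FEN1, the nuclease that trims Okazaki fragments, had 72.2, 78.6 and 37.6 FPKM in vector, 76.2 and 26.8 in TIF1γ, 123 in sh-NC, and 119 and 150 in sh-TAF15. TIF1γ replicate 3 was below all vector libraries of FEN1, TIF1γ replicate 2 lay among them, and the sh libraries were above. RFC2, RFC4 and RPA2 had log2 fold changes of 0.09, −0.44 and −0.31 in TIF1γ, with overlapping groups. The RFC2 to RFC3 ratio, both clamp loader subunits, was 4.27, 5.78 and 5.81 in vector and 22.6 and 7.46 in TIF1γ. Transcript GC is 53.6% for RFC2 and 39.1% for RFC3, and the part of the GC trend in this ratio was not tested.

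In nucleotide supply, 3 of 4 genes were below 0 in TIF1γ, 0 were called, and RRM1 had the lowest p of all 37 members. RRM1, the large subunit of ribonucleotide reductase, had 37.8, 37.9 and 24.0 FPKM in vector (33.2 ± 8.02, SD, n = 3), 14.5 and 16.2 in TIF1γ (15.4 ± 1.21, n = 2), 72.0 in sh-NC, and 56.3 and 53.1 in sh-TAF15. The 2 TIF1γ libraries were alike and well below vector, and all sh libraries were above it. Its log2 fold change was −1.12 (SE 0.25, unadjusted p = 5.37e-04, limma adjusted p = 0.184) in TIF1γ and 0.95 (SE 0.31, adjusted p = 0.0683) in sh-NC against vector. RRM2, the small subunit, had 124, 94.5 and 67.8 FPKM in vector, 96.4 and 32.5 in TIF1γ, 103 in sh-NC, and 110 and 102 in sh-TAF15. TIF1γ replicate 2 stood amid vector and only TIF1γ replicate 3 below it (log2 fold change −0.80, SE 0.36, limma adjusted p = 0.251).

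The subunits of the reductase thus differed between the TIF1γ libraries, for the RRM2 to RRM1 ratio was 6.64 in TIF1γ replicate 2 and 2.00 in replicate 3, against 2.49 to 3.28 in vector and 1.43 to 1.95 in the sh libraries. TK1, which salvages thymidine, had 255, 310 and 188 FPKM in vector and 532 and 188 in TIF1γ, the first above and the second level with the lowest vector library (log2 fold change 0.28, SE 0.35, limma adjusted p = 0.647). TYMS, thymidylate synthase, had 174, 209 and 109 FPKM in vector and 182 and 105 in TIF1γ (−0.28, SE 0.30, limma adjusted p = 0.585). In the annotation 58.2% of the TYMS exon bases lie over exons of ENOSF1 on the opposite strand, and 47.5% of those of CCNE2 over INTS8. Strand use in the counting is not given in the sources used here, so reads of these pairs cannot be told apart. Of the 37 genes 5 share at least 10% of their exon bases with another gene (TYMS, CCNE2, MCM2, RRM2 and GINS3).

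The regulators of S phase entry were not called in any comparison. E2F1, the activator, had 31.5, 38.7 and 26.3 FPKM in vector, 63.2 and 22.5 in TIF1γ, 27.3 in sh-NC, and 39.6 and 47.7 in sh-TAF15. The TIF1γ libraries enclosed all vector libraries, and E2F1 was the only member for which sh-NC had a log2 fold change as low as −0.38 (SE 0.41, limma adjusted p = 0.566). E2F8, a repressor of late S phase, had 2.26, 1.63 and 1.35 FPKM in vector, 1.51 and 0.845 in TIF1γ, 1.80 in sh-NC, and 1.93 and 1.5 in sh-TAF15. Its TIF1γ libraries lay below vector once the libraries were scaled to each other, by a small margin for replicate 2 (log2 fold change −0.40, SE 0.27, limma adjusted p = 0.395). E2F2 had −0.57 to 0.71 as its 95% interval in TIF1γ, around 0.07.

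CCNE1, cyclin E1, had 18.3, 21.2 and 13.2 FPKM in vector, 16.4 and 13.3 in TIF1γ, 20.7 in sh-NC, and 29.3 and 31.2 in sh-TAF15. Both sh-TAF15 libraries were the highest of the 8, at 0.46 (SE 0.32, limma adjusted p = 0.952) against sh-NC. CCNE2 had 1.22, 0.896 and 0.303 FPKM in vector, 0.237 and 0.466 in TIF1γ, 1.11 in sh-NC, and 1.48 and 1.31 in sh-TAF15. These are estimated at 12 to 75 fragments per library, and with the pseudocount of 1 the log2 fold change of CCNE2 understates its ratios (−0.41, SE 0.29, limma adjusted p = 0.409 in TIF1γ).

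Of the chromatin genes, SLBP, which binds the stem-loop of histone mRNA, had 44.9, 50.6 and 20.7 FPKM in vector, 30.3 and 21.0 in TIF1γ, 51.1 in sh-NC, and 48.6 and 59.0 in sh-TAF15. Vector replicate 3 and TIF1γ replicate 3 were nearly level and the lowest of all. TIF1γ replicate 2 lay above vector replicate 3, so vector and TIF1γ overlap (log2 fold change −0.58, SE 0.32, limma adjusted p = 0.306). CHAF1A and CHAF1B, subunits of the chromatin assembly factor that PCNA recruits, had log2 fold changes of 0.00 and −0.04 in TIF1γ. CHAF1A had 13.3, 15.7 and 10.2 FPKM in vector, 17.3 and 10.8 in TIF1γ, 23.4 in sh-NC, and 18.9 and 18.1 in sh-TAF15. In FPKM as deposited TIF1γ replicate 2 and all sh libraries were above every vector library (0.65, SE 0.32, limma adjusted p = 0.205 for sh-NC). Once the libraries were scaled to each other, sh-TAF15 replicate 3 lay below vector replicate 2 for CHAF1A. CHAF1B had 8.0, 8.11 and 7.39 FPKM in vector, 11 and 5.85 in TIF1γ, 11.7 in sh-NC, and 11 and 10.7 in sh-TAF15. Its TIF1γ libraries enclosed vector, and its sh libraries were above vector (0.37, SE 0.33, limma adjusted p = 0.489 for sh-NC).

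All 4 genes of the checkpoint and repair group were below 0 in TIF1γ (48.4% of all genes), with a median of −0.89 and 0 calls. BRCA1, EXO1 and CLSPN have a transcript GC below 45%, where 88.3% of 4264 genes were below 0. With the GC trend removed all 4 were below 0, with a median of −0.47. BRCA1, a mediator of homologous recombination, had 6.60, 5.38 and 4.14 FPKM in vector, 2.31 and 2.77 in TIF1γ, 9.24 in sh-NC, and 6.27 and 4.83 in sh-TAF15. EXO1, an exonuclease of mismatch repair and end resection, had 6.57, 4.61 and 5.20 FPKM in vector, 2.89 and 2.44 in TIF1γ, 12.1 in sh-NC, and 10.7 and 7.65 in sh-TAF15. For both genes the TIF1γ libraries were alike and below all vector libraries, and sh-NC was the highest library. The log2 fold changes in TIF1γ were −0.90 (SE 0.28) for BRCA1 and −0.88 (SE 0.27) for EXO1, each with a limma adjusted p of 0.2. CLSPN, the claspin of the replication checkpoint, had 4.76, 5.75 and 1.22 FPKM in vector and 1.91 and 0.845 in TIF1γ, and its vector replicate 3 lay between the TIF1γ libraries (−1.0, SE 0.41, limma adjusted p = 0.227). UNG, the glycosylase that removes uracil, had 54.4, 59.6 and 33.9 FPKM in vector and 64.0 and 27.5 in TIF1γ, which enclosed vector in FPKM as deposited. Once scaled, TIF1γ replicate 2 lay below vector replicate 2 for UNG.

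Set against the vector mean one at a time, the TIF1γ libraries differed from each other. TIF1γ replicate 3 was below the vector mean for 36 of 37 genes, with a median difference of −0.67 log2 units. TIF1γ replicate 2 was below it for 19 of 37, with a median of −0.12 and a range from −1.45 to 0.94. Vector replicate 3 was itself below the mean of the other vector libraries for 36 of 37, with a median of −0.53, and the exception was CDT1. The share of all genes below 0 in these comparisons was 47.6%, 50.6% and 48.5%. As the mean of log2(scaled FPKM + 1) over the 37 genes, the sh libraries stood at 5.05 (sh-NC), 4.95 and 4.89, vector replicates 1 and 2 at 4.79 and 4.77, TIF1γ replicate 2 at 4.49, vector replicate 3 at 4.25 and TIF1γ replicate 3 at 3.93. The pooled SD of this mean within groups was 0.296, and no neighbours in this order differed by more than this SD except vector replicate 3 and TIF1γ replicate 3, which differed by slightly more. All genes tested had means between 3.39 and 3.49.

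**Figure D3:**
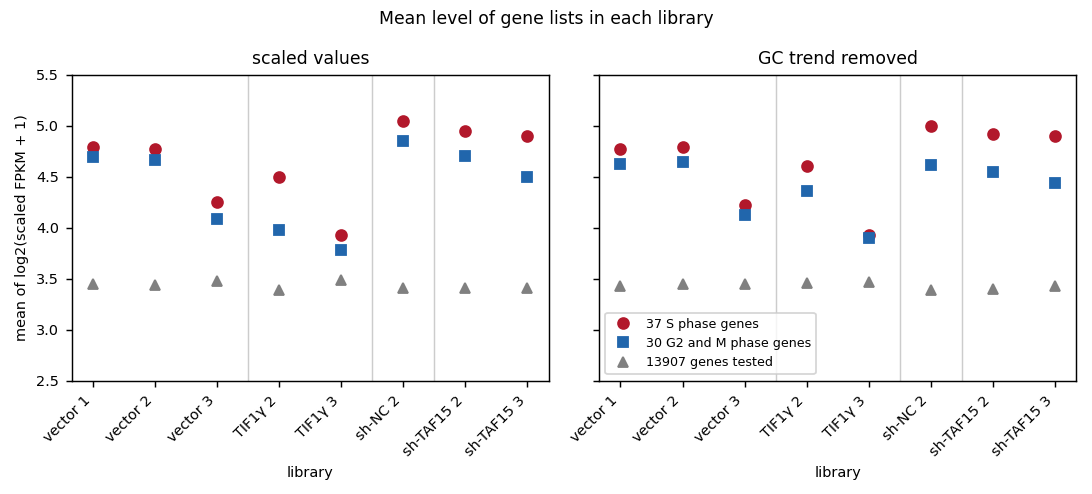
Each point is the mean of log2(scaled FPKM + 1) in 1 library over the 37 S phase genes (circles), 30 G2 and M phase genes (squares) or all 13907 genes (triangles), with the deposited scale at left and the GC trend removed at right. The circles fall to 4.25 in vector replicate 3 and 3.93 in TIF1γ replicate 3, while the triangles stay between 3.39 and 3.49 on the left.

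The members differ in transcript GC content, which ran from 36.9% (CCNE2) to 64.9% (CDT1) with a median of 48.5%, close to the 48.9% of 11720 protein-coding genes tested. Across the 37 genes the log2 fold change in TIF1γ rose with GC (Spearman rho 0.812), as it did across the 11720 genes (rho 0.778), with the genes sharing the same libraries. In TIF1γ replicate 2 alone rho was 0.881 over the members, and in replicate 3 it was 0.482. In sh-NC against vector the relation ran the other way (rho −0.60, against −0.47 over all protein-coding genes). Of the 11 members with an unadjusted p under 0.05 on the lower side in TIF1γ, 9 had a GC below 45%, and CDT1, the 1 on the higher side, had the highest GC of all.

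Genes of matched GC give the background for these values. Below 45% GC, the 12 members had a median log2 fold change of −0.89 in TIF1γ, against −0.46 for 4264 genes. From 45 to 50%, 10 members had −0.35 against −0.12, and from 50 to 55%, 7 members had −0.29 against 0.16. At 55% and above, the 8 members had 0.12 against 0.42. The members were therefore below genes of like GC in all 4 bands. TIF1γ replicate 3 alone also had the members below genes of like GC in all 4 bands, at −0.35 against 0.28 in the band of 55% and above. TIF1γ replicate 2 did not, with the members at −0.05 against −0.21 from 45 to 50% and at 0.76 against 0.57 at 55% and above. In sh-NC against vector the members stood at 0.89, 0.25, 0.32 and −0.03 in the 4 bands from low to high GC, against 0.40, 0.14, −0.10 and −0.42 for all genes, above genes of like GC in each.

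With the trend on transcript GC removed from each library, the median of the members in TIF1γ was −0.29, with 32 of 37 below 0, against 47.4% of all genes. Those with an unadjusted p under 0.05 numbered 4 in place of 12, namely RRM1 (−0.77), POLE2 (−0.98), RFC3 (−0.53) and BRCA1 (−0.47), against 3.31% of all genes on the lower side, and limma called 0 (0.00719% of all genes). CDT1 then had 0.16 and GINS1 −0.18. The median of TIF1γ replicate 2 against vector became 0.12, with 15 of 37 below 0, while that of TIF1γ replicate 3 remained at −0.67, with 35 of 37 below 0, and that of vector replicate 3 against the other vector libraries was −0.56. With the GC trend removed, the mean level over these genes was lowest in TIF1γ replicate 3 (3.92) and vector replicate 3 (4.22). TIF1γ replicate 2 came next at 4.60, below vector replicates 1 and 2 at 4.77 and 4.79 and the sh libraries at 4.90 to 5.00. In sh-NC against vector, where 9.92% of all genes were called, MCM10 passed the test (1.58, limma adjusted p = 0.0312) and POLA1 did not (0.93, adjusted p = 0.102), and the median was 0.38.

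**Figure D4:**
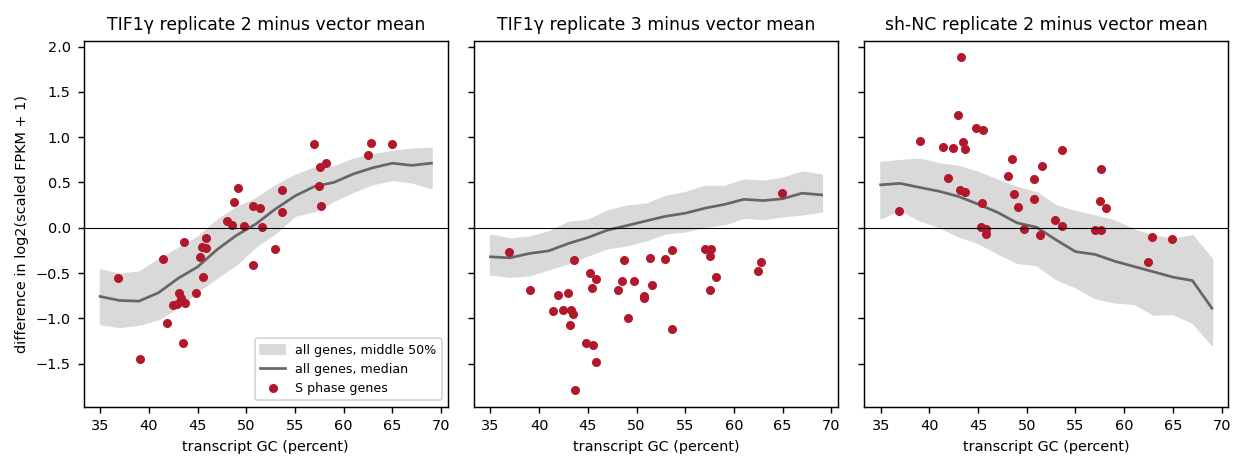
Red points are the 37 genes in TIF1γ replicate 2, TIF1γ replicate 3 and sh-NC, as the difference in log2(scaled FPKM + 1) from the vector mean against transcript GC in percent, and the grey line and band are the median and middle 50% of all protein-coding genes. In TIF1γ replicate 2 the points follow the grey line, with a median of −0.12, and in TIF1γ replicate 3 nearly all lie under it, with a median of −0.67.

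The difference between the effects, TIF1γ against vector less sh-TAF15 against sh-NC, was tested in the same fit. None of the 37 was called (0.0431% of all genes), and MCM6 was the 1 with an unadjusted p under 0.05 (3.6% of all genes), at −1.08 (unadjusted p = 0.0330, limma adjusted p = 1). This test draws on both pairs of groups, and the sh-TAF15 side on the same lone sh-NC library. The median of the difference was −0.31, with 29 of 37 below 0 against 50.4% of all genes. It was −0.17 without vector replicate 1, −0.19 without vector replicate 2, −0.53 without TIF1γ replicate 2 and −0.02 without TIF1γ replicate 3.

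The members with and without an E2F site in the promoter are described here by their medians, with no test. The 18 genes with an E2F site had a median log2 fold change of −0.36 in TIF1γ and 0.40 in sh-NC against vector, and the 14 without one had −0.37 and 0.34. In sh-TAF15 against sh-NC the medians were −0.12 with a site and −0.01 without. The median transcript GC was 45.4% with a site and 50.7% without. Of the genes without a site, CHAF1A, CHAF1B, RFC2, RFC4, RRM1 and UNG hold the shorter core, so that group is not free of E2F cores.

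The other genes of the pathway were listed by function. In TIF1γ against vector 0 of 74 were called (0.0216% of all genes) and 59 were below 0 (48.4% of all genes), with a median of −0.44. An unadjusted p under 0.05 was found for 24 of them (19.9% of all genes). With the GC trend removed it was found for 1 (7.46% of all genes), 55 were below 0 (47.4% of all genes) and the median was −0.20. By list, 32 of 39 further replisome genes, 6 of 10 of nucleotide supply, 13 of 16 of E2F and RB control and 8 of 9 of chromatin were below 0. The lowest p values were those of HAT1, a histone acetyltransferase (−1.11, SE 0.31, limma adjusted p = 0.2), and CCNA2, cyclin A2 (−0.90, SE 0.27, adjusted p = 0.2). The 30 G2 and M phase genes had a median of −0.70, with 24 below 0 (48.4% of all genes). With the GC trend removed their median was −0.33, again with 24 below 0 (47.4% of all genes). In sh-TAF15 against sh-NC 0 of 74 were called (0.0575% of all genes) and 48 were below 0 (50.3% of all genes). The lowest p values there were those of ORC3, an origin recognition subunit (−0.81, SE 0.33, limma adjusted p = 0.801), and CDKN1A, the p21 inhibitor of cyclin kinases, at 127 FPKM in sh-NC and 226 and 256 in sh-TAF15 (0.86, SE 0.37, adjusted p = 0.848).

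In sh-NC against vector 3 of the 74 were called, beside 11% of all genes. NASP, a histone chaperone, had 68.7, 72.9 and 53.1 FPKM in vector and 181 in sh-NC, and rose by 1.31 log2 units (SE 0.29, limma adjusted p = 0.0107). POLD4, the smallest subunit of polymerase delta, had 354, 400 and 375 FPKM in vector and 132 in sh-NC (−1.67, SE 0.30, limma adjusted p = 0.00317). SHMT1, which makes one-carbon units for thymidylate, had 58.4, 54.0 and 61.5 FPKM in vector and 25.7 in sh-NC (−1.31, SE 0.29, limma adjusted p = 0.0117). So 1 of the 3 calls was higher and the other 2 lower, while 52 of the 74 were above 0 (50.9% of all genes). In the difference between effects the lowest p values were those of CBX5, heterochromatin protein 1 alpha (−1.0, SE 0.46), and RBBP7, a histone-binding protein (−0.88, SE 0.44). There 0 of 74 were called (0.0431% of all genes), with a limma adjusted p of 1 for both.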

How the data were processed

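RNA sequencing libraries of A549 cells were analysed from the deposited FPKM values, which the authors made from trimmed reads. Per the submitters' processing notes the tools were cutadapt 1.9.1, HISAT2 2.0.1 and HTSeq 0.6.1 on GRCh37. The step from counts to FPKM is not given in the sources used here, and neither is the strand setting, so depth is an estimate. Per the labels' protocols RNA was extracted with TRIzol and sequenced on Illumina HiSeq. The labels call the replicates biological, and the p-values measure the spread between these samples.

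Of the 57879 identifiers 52324 matched a symbol in GENCODE 29, from which transcript length and GC also come. Testing was limited to the 13907 genes that reached 1 FPKM in 2 or more libraries, and 19 genes with an exact 0 in 1 library beside 100 FPKM or more in another were set aside. Libraries were scaled by a trimmed mean of ratios (30% and 5% trimmed). limma 3.58.1 in R 4.3.3 was run on log2(scaled FPKM + 1), with all 4 groups in 1 fit, trend and robust options, 4 residual degrees of freedom, and Benjamini-Hochberg adjustment over all genes. A gene is called at an adjusted p under 0.05. Fold changes understate the change of low genes because of the pseudocount of 1. The GC trend was removed per library by lowess (span 0.3) over protein-coding genes. The procedure was tested on simulated data. Tables and figures were made in Python 3.11.15 with pandas 2.3.3, numpy 2.4.6 and scipy 1.17.1.

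The members and lists were chosen with earlier results of these data known. Genes described with every library's value are those called in a comparison and, in each role group, the 2 with the lowest p in TIF1γ against vector and the 1 with the lowest p in each of the other 2 comparisons. Others are named to account for all members. From the other pathway lists they are the calls, or with none the 2 lowest p. Marker lists for epithelial, leukocyte, endothelial and fibroblast cells were examined. The summed leukocyte markers were 22.3 to 52.1 FPKM, nearly all from CD68, and the endothelial markers at most 0.270. Alternatives were other scalings, pseudocounts, filters, GC and length trends, a replicate block and each library left out. Removing the GC trend together with leaving out a library was chosen after seeing the data. UHRF1 and PECAM1 were not matched and are not analysed here.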

Additional observations from a re-analysis of the deposited data

How the results depend on the processing

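In TIF1γ against vector, 12 members had an unadjusted p under 0.05 (19.9% of all genes). The share of all genes also changed with the setting, so a change in this count is not one of the members alone. The count was 4 with the GC trend removed (7.46% of all genes) and 4 with GC and length trends removed. It was 3 with the replicate block and 2 with the block and the GC trend removed together. Leaving out 1 library gave 6 to 17, and 1 to 13 with the GC trend also removed, an alternative chosen after seeing the data. The number called ranged from 0 to 5, and the 5, found without vector replicate 3, became 0 with the GC trend also removed. The median ranged from −0.66 to −0.12, or from −0.67 to 0.12 with the GC trend removed. In sh-TAF15 against sh-NC the median of −0.09 was 0.12 with the block and 0.17 with the block and the GC trend removed. In sh-NC against vector 2 members were called, beside 1528 of 13907 genes. With a pseudocount of 0.1 limma called 1, beside 1582 genes. It also called 1 with the GC trend removed (1379 genes) or GC and length trends removed (1472). The block gave 1 (1000 genes), as did the block with the GC trend removed (602). A single call also remained without the trend and robust options (1400 genes) and with only the groups compared (1157). With no filter 0 were called, beside 1130 of 24975 genes. Without scaling 3 were called, beside 1681 genes, where RRM1 was added (limma adjusted p = 0.0422). Calls over all genes thus changed with these settings too, so a change in the counts is not one of the members alone. Against the 8 with an unadjusted p under 0.05 there, all higher (12.4% of all genes on the higher side), 4 were counted with no filter. With the GC trend removed 5 were counted (11.8% of all genes on the higher side). The count was 5 with GC and length trends removed, 5 with the block and 3 with the block and the GC trend removed. Leaving out 1 library gave 1 to 2 called and 4 to 10 with an unadjusted p under 0.05, and 0 to 1 called and 4 to 7 with the GC trend removed. The median of the difference between effects ranged from −0.53 to −0.02, and from −0.58 to 0.0908 with the GC trend removed. The cause of these shifts was not tested. Values without the sh-NC library cannot be given for its comparisons.

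The replicate numbers were not taken to pair the libraries. The difference between replicates 2 and 3 correlated across genes at 0.154 for vector and TIF1γ (0.303 with the GC trend removed), so these 2 groups deviated together, but at −0.319 (−0.394) for vector and sh-TAF15 and −0.240 (−0.168) for TIF1γ and sh-TAF15. With the block the median of the members in TIF1γ against vector was −0.24, and limma called 44 genes in TIF1γ against vector in place of 3. Without scaling the median of all genes in sh-NC against vector was 0.16. Among 3639 alternatives for single genes, 3167 kept their direction and side of the threshold, 440 changed sign while not called, 21 lost a call, 11 gained one and 0 reversed a call. Precision is limited by 1 sh-NC and 2 TIF1γ libraries, and by the few fragments of CCNE2.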
